A study of Mus musculus with 24 samples.

Results

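The BCL2 family decides at the mitochondrial outer membrane whether a cell survives or dies. Survival proteins such as BCL2, BCL-XL (gene Bcl2l1) and MCL1 (Mcl1) hold back the pore-forming effectors BAX (Bax) and BAK (Bak1), and BH3-only proteins such as BIM (Bcl2l11), PUMA (Bbc3) and NOXA (Pmaip1) switch the survival proteins off after stress. MCL1 is needed by oocytes and by the early embryo, PUMA and NOXA act in the death of oocytes with damaged DNA, and Bcl2l10 encodes a relative that is abundant in oocytes and whose effect on cell death differs between reports. N6-methyladenosine (m6A) is a methyl group on certain adenosines of an mRNA. Proteins that read it can change how long the mRNA lasts and how well it is translated.

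Those 9 genes (Bcl2l10, Mcl1, Bcl2l1, Bcl2, Bcl2l11, Bax, Bak1, Bbc3 and Pmaip1) were followed by name, of 21887 protein-coding genes in the reference table, through the m6A peaks that overlap their gene bodies. All samples were C57BL/6N, from superovulated females 8 weeks old, and no mutation or drug was compared. Germinal vesicle (GV) oocytes, of the SN type, were collected 48 h after PMSG in medium with the phosphodiesterase inhibitor IBMX. The other samples are timed from the hCG injection: metaphase II (MII) oocytes at 14 h, zygotes between 27 and 28 h, 2-cell embryos between 39 and 43 h, 8-cell embryos between 68 and 70 h, and blastocysts between 92 and 94 h. Every stage (6 in all) was sampled in 2 biological replicates, which pooled between 49 and 110 oocytes or embryos, and each of these 12 samples gave 1 list of peaks from antibody-bound RNA. The matching 12 libraries of input RNA were not used here.

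The lists held 6914 to 11959 peaks, and 3025 to 5237 protein-coding genes per library had a peak over their body, which is called marked here. In all, 9903 genes were marked in at least 1 library. The median −log10 q-value of a list was 20.4 to 33.3 in the libraries up to the zygote and 10.7 to 18.0 in the later ones, and its part in the results was not tested. Read depth was unknown. A missing peak therefore cannot tell a lack of methylation apart from a low level of the mRNA or a signal too weak to be called, nor less RNA per cell from fewer cells in a pool. The 6 libraries of GV oocytes, MII oocytes and zygotes are called the maternal phase, after the RNA store laid down in oocyte growth, and the 6 of later stages the embryonic phase. Of 8 oocyte markers, 2 or 3 were marked per maternal library (Gdf9 and Bmp15 in all 6) and 0 to 2 per embryonic library, while 5 (Zp1, Zp2, Zp3, Oosp1 and Figla) had no peak anywhere. Of 5 trophectoderm markers, Cdx2 and Eomes were marked in each 8-cell and blastocyst library and in no other, Gata3 in these and in all 6 maternal libraries, and Krt8 and Krt18 in none. Some other markers followed the labels less closely. Zscan4d of 2-cell embryos also had peaks in both GV oocyte libraries, MII oocyte replicate 1 and both 8-cell libraries. Tdpoz1, of the same list, had them in all 6 embryonic libraries, and Sox2 of the inner cell mass also in 4 maternal libraries. The remaining markers of these lists had no maternal peak. Usp17la had a peak in 2-cell replicate 1 alone, Zscan4c had none, and Dux was not found among the protein-coding genes. Of the inner cell mass, Nanog had peaks in 8-cell replicate 2 and both blastocyst libraries, and Fgf4 in 5 embryonic libraries, both 2-cell ones among them. A peak list shows methylation that was detected, not which genes are expressed, so these markers check the labels in part.

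Bcl2l10, whose role is not settled, was marked at the start of development. Among the survival genes, Mcl1 was marked in GV oocytes and again from the 2-cell stage on. Bcl2l1 was marked at every stage, in 11 of the 12 libraries, while Bcl2 was never marked. Of the effectors, Bax had a peak in 2 libraries and Bak1 in none. Among the BH3-only genes, Bcl2l11 was marked in 4 libraries, Bbc3 in 3 and Pmaip1 in 0. Each library thus marked 2 to 4 of the 9 genes, and 6 of them were marked in at least 1. That is 22.2% to 44.4% of the members, beside 13.8% to 23.9% of all 21887 protein-coding genes and 30.5% to 52.9% of the 9903 genes marked in some library.

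**Figure D1:**
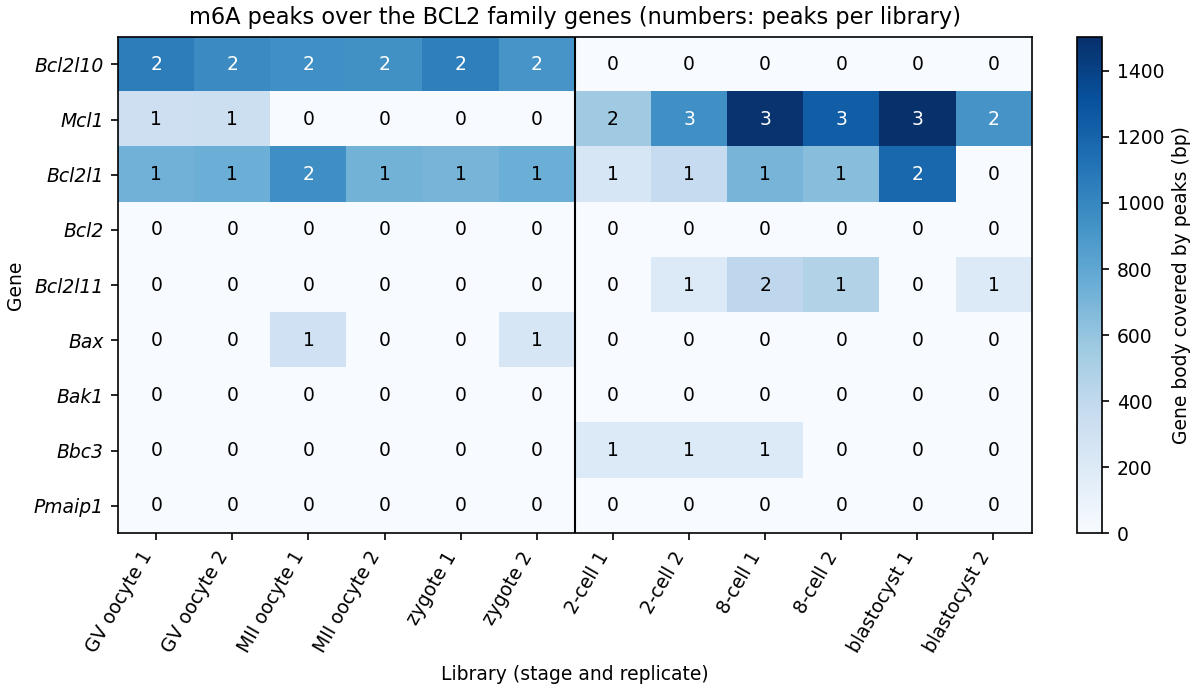
Base pairs of each gene body covered by m6A peaks (colour) and number of peaks (digits) for the 9 BCL2 family genes (vertical axis) in the 12 libraries (horizontal axis). The vertical line separates the maternal from the embryonic phase. Bcl2l10 has 2 peaks in each maternal library and 0 in each embryonic one, Mcl1 has 2 or 3 peaks in each embryonic library, and Bcl2, Bak1 and Pmaip1 have none.

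Bcl2l10 was marked in both GV oocyte, both MII oocyte and both zygote libraries and in no library after them. Its gene body lies at chromosome 9, 75347758 to 75351640 (mm10, 3883 bp), and each maternal library had 2 peaks there, 1 near either end of the gene. The first lay within 75347809 to 75348296, which begins 51 bp inside the low-coordinate end of the gene, and the second within 75350916 to 75351518, which stops 122 bp before the high-coordinate end. No other gene of the reference table overlaps either region.

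Peaks covered 1055 bp of Bcl2l10 in GV oocyte replicate 1, 977 bp in GV oocyte replicate 2, 947 bp and 943 bp in MII oocyte replicates 1 and 2, and 1042 bp and 915 bp in zygote replicates 1 and 2. They covered 0 bp in each of the 6 embryonic libraries. The phases did not overlap. Within the maternal phase both GV oocyte libraries lay above both MII oocyte libraries, and the zygote replicates overlapped both stages. The mean was 979.8 bp ± 56.9 in the maternal and 0 bp in the embryonic phase (SD, n = 6 each, exact two-sided permutation test, p = 0.00216, the smallest this design allows, adjusted p = 0.0102 over 5121 genes). That call was made in the maternal direction for 25.4% of the genes tested.

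The number of marked libraries gave the same call (6 against 0, Fisher's exact test, p = 0.00216, adjusted p = 0.00963 over 2310 genes marked in 5 to 7 libraries). The test called 28.0% of these genes for the maternal phase, and 2.77% of the 9903 genes had 6 maternal libraries and no embryonic one. Bcl2l10 is the member of the 9 with a total of marked libraries that this test can use. A phase holds 3 stages, each sampled by 2 libraries. With whole stages permuted, 3 against 3, no gene can go below a p of 0.1, and the call was lost (adjusted exact permutation p = 0.202). It was also lost among peaks with a fold at or above the median of their own library, where Bcl2l10 kept 2 maternal libraries.

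The fold enrichment and q-value of each peak are the authors' and describe it within its own list, where rank 1 is the lowest q-value. The Bcl2l10 peak near the high-coordinate end ranked 10 of 10953 in GV oocyte replicate 1 and 19 of 11959 in GV oocyte replicate 2, with 7.01-fold and 5.37-fold enrichment. In MII oocytes it ranked 474 and 516 with 2.67-fold and 2.62-fold enrichment, and in zygotes 393 and 956 with 3.35-fold and 2.32-fold. The peak near the low-coordinate end was enriched 2.19-fold to 4.57-fold over the 6 libraries and ranked between 49 (zygote replicate 1, of 6914) and 639 (MII oocyte replicate 1, of 10781). All 12 peaks of Bcl2l10 had a lower q-value than 90.6% or more of the peaks of their list. By fold they stood lower: 2 of the 12 reached the median fold of their own library. In the MII oocyte and zygote libraries the second peak held 2 summits, and in the GV oocyte libraries 1.

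Markers of cumulus and granulosa cells, which surround the oocyte, were also marked in the maternal phase alone, for 4 of 11 genes (Inhba, Cyp19a1, Has2 and Hsd3b1). They numbered 2 and 3 in the GV oocyte libraries, 1 and 3 in the MII oocyte libraries and 0 in every zygote and embryonic library, and Amh, Fshr, Foxl2, Inha, Ptx3, Tnfaip6 and Star had no peak. Both zygote libraries, with 0 of the 11 marked, held both Bcl2l10 peaks. Blastocyst replicate 1 had peaks over the oocyte genes Gdf9 and Bmp15, and 2-cell replicate 1 over Gdf9. Neither library had a peak over Bcl2l10. A missing marker peak does not show that a cell type is absent, and the source of the Bcl2l10 peaks was not tested.

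By the correlation of covered length over the 12 libraries, the 3 genes most like Bcl2l10 were Rap1gds1 (Pearson's r = 0.999), Eif4e1b (0.997; a cap-binding protein of oocytes) and Tnni3 (0.995; cardiac troponin I). Each was marked in 6 maternal libraries and 0 embryonic ones, as were 273 genes in all beside Bcl2l10. These coefficients mostly reflect a shared absence in 6 libraries, and they are given as a description.

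**Figure D2:**
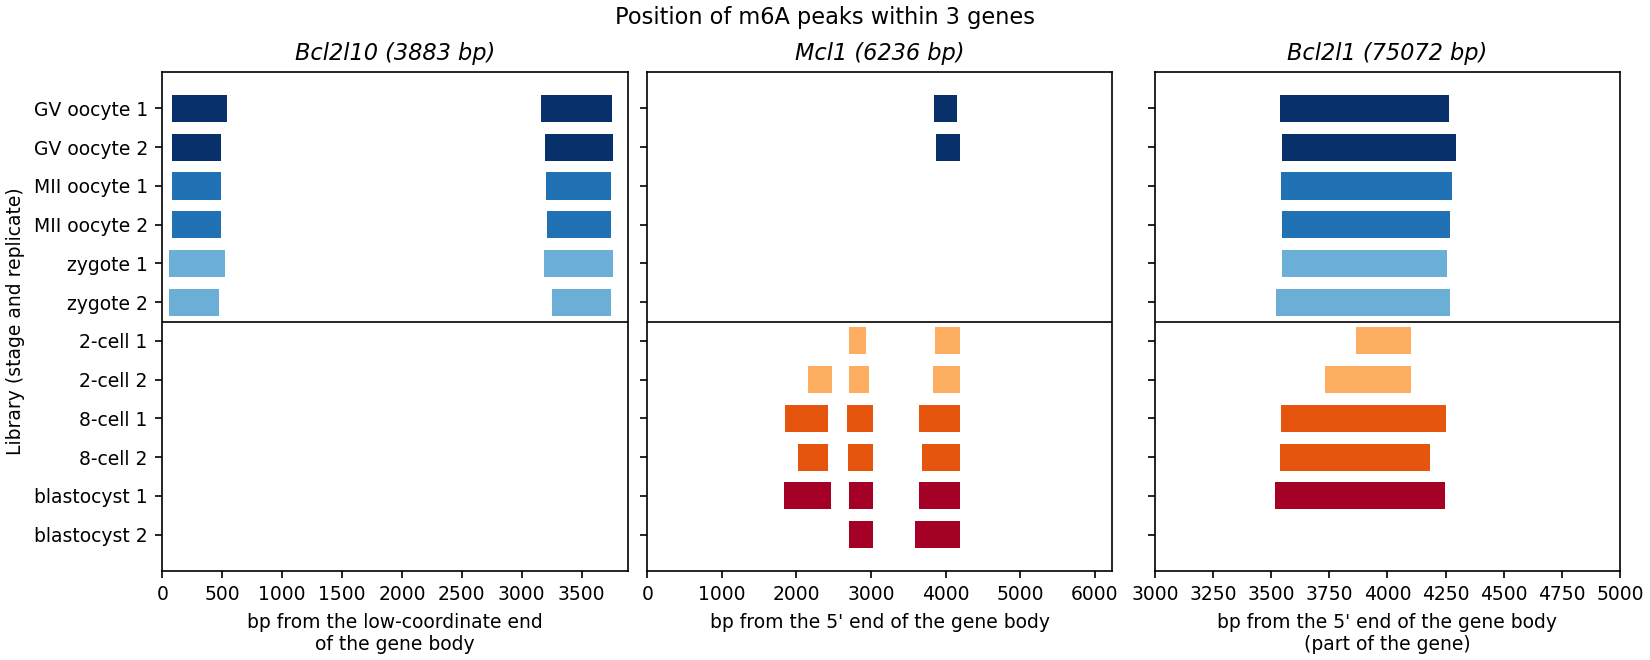
Each bar is 1 m6A peak, drawn from its first to its last base along Bcl2l10, Mcl1 and part of Bcl2l1 (horizontal axes, bp from the end of the gene body named on the axis), with 1 line per library (vertical axis). Bcl2l10 peaks lie at both ends of the gene in the 6 maternal libraries, Mcl1 gains its first and second regions in the embryonic libraries, and the Bcl2l1 region is shared by 11 libraries.

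Mcl1, the gene of a short-lived survival protein, showed a different order. It was marked in both GV oocyte libraries, in no MII oocyte or zygote library, and then in all 6 embryonic libraries. The gene body lies at chromosome 3, 95656944 to 95663179 (mm10, 6236 bp, plus strand), and the RefSeq start in the promoter table is at 95658721. Its 18 peaks fell into 3 regions, named here from the 5′ end.

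The third region, 95660537 to 95661133, was the one shared with GV oocytes and was marked in 8 libraries. Its peak was 320 bp and 326 bp long in GV oocyte replicates 1 and 2, 330 bp and 365 bp in 2-cell replicates 1 and 2, 544 bp and 503 bp in the 8-cell replicates, and 552 bp and 597 bp in the blastocyst replicates. Every 8-cell and blastocyst peak was thus longer than every GV oocyte and 2-cell peak. In GV oocytes it ranked 5399 of 10953 and 3936 of 11959, near the middle of the lists, with 8.37-fold and 11.2-fold enrichment. In 2-cell embryos it ranked 146 of 9161 and 43 of 9553, with 7.91-fold and 14.9-fold enrichment. In 8-cell embryos it ranked 15 of 8803 and 11 of 9463, with 17.3-fold and 13.5-fold enrichment, and in blastocysts 35 of 9133 and 93 of 7946, with 14.3-fold and 10.6-fold. Ranks come from lists of different lengths and show each peak's place in its own list.

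The second region, 95659619 to 95659975, was marked in the 6 embryonic libraries and in no maternal one. It began 898 bp after the RefSeq start. Its peaks ranked 3651 and 497 in 2-cell replicates 1 and 2, 131 and 130 in the 8-cell replicates, and 648 and 268 in the blastocyst replicates, with 2.22-fold to 6.94-fold enrichment. With regions merged over the 12 libraries as the unit of Fisher's exact test, an analysis chosen after seeing the data, this region was called for the embryonic phase (0 against 6, p = 0.00216, adjusted p = 0.00858 over 4792 regions). That test called 14.8% of regions for the embryonic and 43.0% for the maternal phase, both Bcl2l10 regions among the latter (adjusted p = 0.00858 each, Fisher's exact test). The first region, 95658781 to 95659416, began 60 bp after the RefSeq start and was marked in 4 libraries: 2-cell replicate 2, both 8-cell replicates and blastocyst replicate 1. Its best-ranked peak was that of 8-cell replicate 1, 1192 of 8803 with 9.21-fold enrichment, and its lowest that of 2-cell replicate 2, 6473 of 9553 with 4.00-fold. No other gene of the table overlaps any of the 3 regions.

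Summed over the regions, peaks covered 320 bp and 326 bp of Mcl1 in GV oocytes and 0 bp in both MII oocyte and both zygote libraries. They covered 556 bp and 949 bp in 2-cell replicates 1 and 2, 1481 bp and 1233 bp in the 8-cell replicates, and 1503 bp and 918 bp in the blastocyst replicates. Every embryonic library was above every maternal one, whereas the 2-cell and blastocyst replicates overlapped each other. The means were 107.7 bp ± 166.8 and 1107 bp ± 368 (SD, n = 6 each, exact two-sided permutation test, p = 0.00216, adjusted p = 0.0102), with 0.333 and 2.67 peaks per library and 323 bp and 415 bp per peak. Covered length was called longer in the embryonic phase for 15.6% of the genes tested. With each library left out in turn the call held (adjusted exact permutation p of 0.0108 to 0.0200). No peak of Mcl1 has its midpoint within 2000 bp of an end of the gene body, so there is no call for such peaks. The gene body begins before the RefSeq start, and the 3 regions begin 60 bp, 898 bp and 1816 bp after that start. The limit of 3 stages against 3, with a p of at least 0.1, applies here too.

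By marked libraries alone (2 against 6), Mcl1 lay outside the totals that the gene test can use, with an unadjusted Fisher's exact p of 0.0606. Without GV oocyte replicate 1 or replicate 2 the total came into range and Mcl1 was called for the embryonic phase (adjusted p = 0.0406 and 0.0400, Fisher's exact test). Both of these libraries mark Mcl1 and so go against the call. Without any 1 of the 6 embryonic libraries Mcl1 was also in range and was not called (adjusted p of 0.101 to 0.121, Fisher's exact test). Another 87 genes, 0.879% of those marked, had exactly the pattern of Mcl1 over the 12 libraries.

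**Figure D3:**
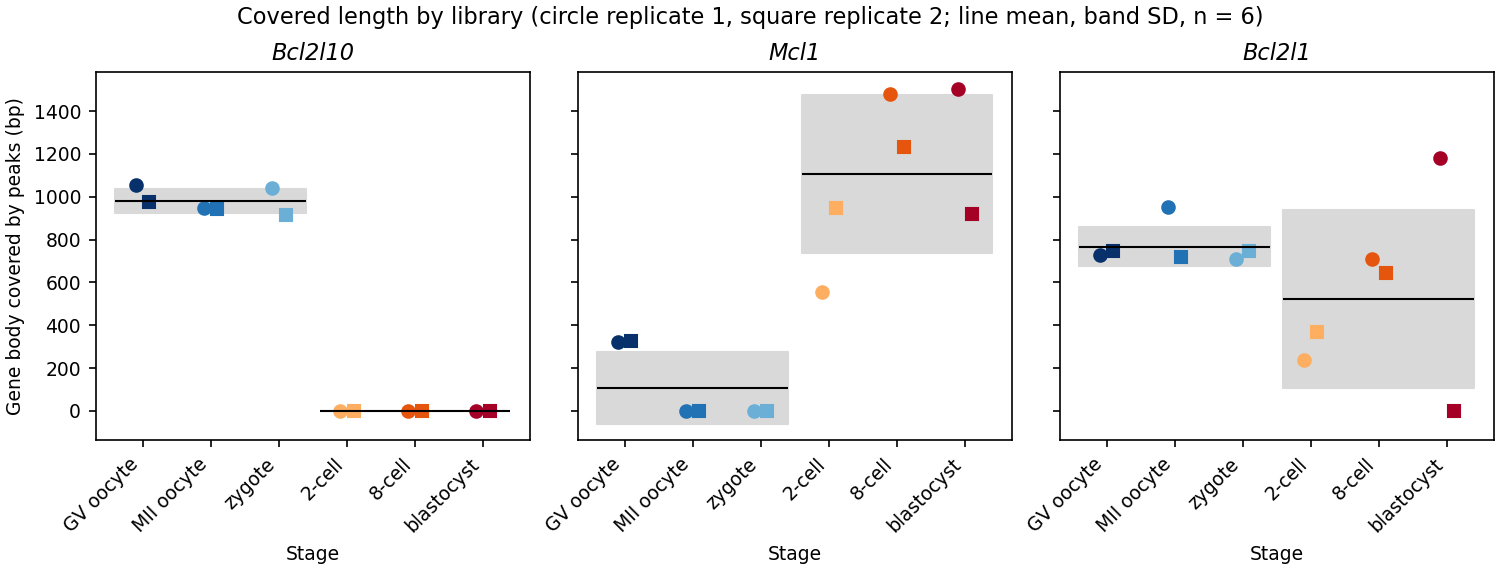
Base pairs of the gene body covered by m6A peaks (vertical axis) at each stage (horizontal axis) for Bcl2l10, Mcl1 and Bcl2l1. Circles are replicate 1 and squares replicate 2, lines give the mean and grey bands the SD of the 6 libraries of a phase. The phases do not overlap for Bcl2l10 and Mcl1, and they overlap for Bcl2l1, where blastocyst replicates 1 and 2 lie at 1182 bp and 0 bp.

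Bcl2l1, the gene of BCL-XL, was marked in 11 of the 12 libraries, the exception being blastocyst replicate 2. Of all marked genes, 12.7% were marked in 11 or more libraries. The gene body lies at chromosome 2, 152758732 to 152833803 (mm10, 75072 bp, minus strand), and all 11 libraries had a peak within 152829511 to 152830287. This region is 3516 to 4292 bp from the 5′ end of the gene body and begins 430 bp downstream of the nearest of the 3 RefSeq starts.

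The Bcl2l1 peak there was 726 bp and 746 bp long in GV oocytes, 735 bp and 720 bp in MII oocytes, and 710 bp and 747 bp in zygotes. In 2-cell embryos it was 236 bp and 370 bp, in 8-cell embryos 710 bp and 643 bp, and in blastocyst replicate 1 it was 733 bp. Both 2-cell libraries thus held the shortest peaks of the 11. Fold enrichment was 2.59 to 3.16 in the 6 maternal libraries, 2.47 and 4.11 in 2-cell embryos, 6.05 and 6.28 in 8-cell embryos and 8.32 in blastocyst replicate 1. By rank the order differed: the 5 maternal peaks other than zygote replicate 1 had a lower q-value than 82.4% or more of their list, and zygote replicate 1 and the 8-cell and blastocyst peaks than 61.1% to 69.9%, while both 2-cell peaks stood at 20.9% and 57.1%.

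Each of 2 further Bcl2l1 peaks, deep inside the gene, was seen in 1 library: 152782206 to 152782424 in MII oocyte replicate 1 and 152781185 to 152781633 in blastocyst replicate 1. Both ranked low in their lists, above 7.98% and 16.2% of the peaks. With them, covered length was 767.2 bp ± 92.7 in the maternal and 523.5 bp ± 415.4 in the embryonic phase (SD, n = 6 each, exact two-sided permutation test, p = 0.188, adjusted p = 0.289). The difference was not called, which does not show that the phases were alike. Without blastocyst replicate 1 the difference rose from 243.7 bp to 375.4 bp and was called (adjusted exact permutation p = 0.0179). Blastocyst replicate 2, without a Bcl2l1 peak, had the shortest embryonic list (7946 peaks) and the lowest median −log10 q-value of the 12 (10.7). Zygote replicate 1, with the shortest list of all (6914 peaks), held a Bcl2l1 peak. Whether the length or strength of a list played a part was not tested.

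**Figure D4:**
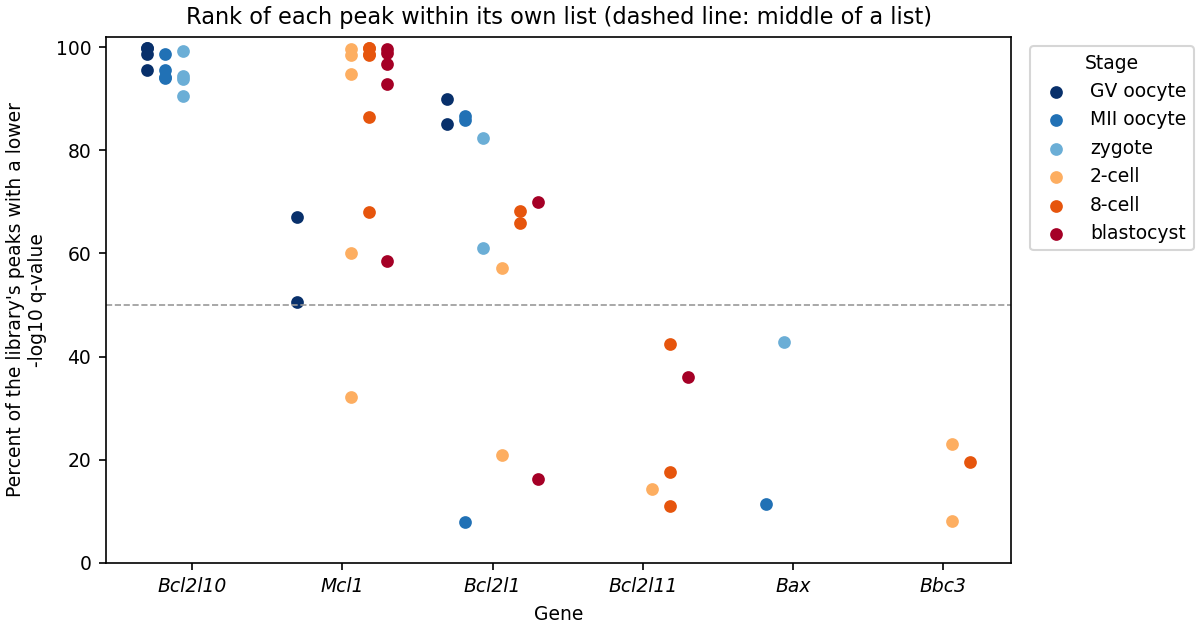
Share of the peaks of the same library that have a lower −log10 q-value (vertical axis, percent) for each peak over the 6 marked BCL2 family genes (horizontal axis), coloured by stage. All Bcl2l10 peaks lie above 90%, and all peaks of Bcl2l11, Bax and Bbc3 lie below the dashed line at the middle of a list.

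Of the pore-forming effectors, Bax had 2 peaks and Bak1 none. The Bax peaks were in MII oocyte replicate 1 and zygote replicate 2, overlapped each other within chromosome 7, 45466137 to 45466452 (mm10, minus strand), and lay 451 to 766 bp from the 5′ end of the gene body. They were enriched 4.56-fold and 8.17-fold and ranked 9494 of 10781 and 5759 of 10131. In neither stage did the other replicate have the peak, and the 2 marked libraries against 0 were below the number that can be tested. In both stages the replicate without the peak had the shorter list (8967 peaks in MII oocytes and 6914 in zygotes). Whether list length played a part was not tested. Bak1, at chromosome 17, 27019812 to 27028627, stayed without a peak when its gene body was extended by 1000 bp.

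Of the 3 BH3-only genes, Bcl2l11 and Bbc3 were marked, in embryonic libraries, with peaks in the lower part of their lists by q-value. Bbc3, the gene of PUMA, had 1 peak in each 2-cell library and in 8-cell replicate 1, all within chromosome 7, 16317209 to 16317410 (mm10, plus strand), which ends 924 bp before the 3′ end of the gene body. The 3 peaks were 200 or 201 bp long, with 4.80-fold, 5.59-fold and 5.87-fold enrichment, and had a lower q-value than 8.09%, 23.0% and 19.6% of their list. Bbc3 was therefore marked reproducibly at the 2-cell stage and in 1 of 2 libraries at the 8-cell stage.

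Bcl2l11, the gene of BIM, was marked in 2-cell replicate 2, both 8-cell replicates and blastocyst replicate 2, by 5 peaks at 4 places along its 36510 bp (chromosome 2, 128126038 to 128162547, plus strand). The place nearest to the 3′ end, 128161387 to 128161696, joined the peaks of 8-cell replicate 1 and blastocyst replicate 2, and each of the others came from 1 library. Thus both 8-cell libraries marked Bcl2l11, but at different positions, and no place was marked in both libraries of a stage. Fold enrichment was 3.28 to 7.51, and the peaks stood above 10.9% to 42.4% of their lists. With 4 marked libraries Bcl2l11 could not be tested (unadjusted Fisher's exact p = 0.0606). When 2-cell replicate 1 or blastocyst replicate 1, which did not mark it, was left out, it was called for the embryonic phase (adjusted p = 0.0305 and 0.0357, Fisher's exact test), which rests on the removal of a library without the peak. Without any 1 of the 6 maternal libraries it was also in range and was not called (adjusted p of 0.1001 to 0.1079, Fisher's exact test).

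Pmaip1, the gene of NOXA, and the survival gene Bcl2 were also without a peak, with or without an extension of 1000 bp. Bcl2 is the longest gene of the 9, with 176115 bp at chromosome 1, 106538176 to 106714290.

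The 43 peaks over Bcl2l10, Mcl1 and Bcl2l1 stood above a median of 92.9% of their lists, and 39 of them lay above the middle, by q-value. They come from 3 genes seen again in many libraries, and 12 of them from Bcl2l10, whose effect on cell death differs between reports. These counts are therefore not a measure of a role. The 10 peaks over Bcl2l11, Bax and Bbc3 stood above 8.09% to 42.8% of their lists, so 0 of 10 lay above the middle. By fold the groups did not separate in this way: 15 of the 43 and 3 of the 10 peaks reached the median fold of their library. The 10 peaks were 200 to 473 bp long, against 219 to 747 bp over Bcl2l10, Mcl1 and Bcl2l1. With the same number of peaks in every library, 0 of 3 libraries kept a Bbc3 peak and 1 of 2 kept a Bax peak.

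From stage to stage, a gene is called gained here when both later libraries and neither earlier one mark it, and lost in the reverse case. At 2 against 2 the smallest exact p is 0.333, so these counts are a description. From GV to MII oocytes Mcl1 was lost, as were 8.74% of the 9903 genes marked in some library (3.96% of all 21887). From zygote to 2-cell embryos Mcl1 and Bbc3 were gained (9.88% of the 9903 genes, 4.47% of the 21887) and Bcl2l10 was lost (7.94% and 3.59%). The gain of Bbc3 depended on weak peaks. It kept 0 libraries with equal numbers of peaks per library, and 0 with the peak filters by score or by fold given below. The 9 members include 3 that were never marked. At this step the region of Bcl2l1 stayed marked in all 4 libraries. With the score filter Bcl2l1 kept 3 of its 5 embryonic libraries. None of the 9 genes was gained from GV to MII oocytes, and none changed in this sense from MII oocytes to zygotes, from 2-cell to 8-cell or from 8-cell to blastocyst. Of the 9903 genes, 3.33% were gained at the first of these steps. From MII oocytes to zygotes 0.666% were gained and 2.53% lost, from 2-cell to 8-cell embryos 10.9% and 5.66%, and from 8-cell embryos to blastocysts 4.79% and 4.29%.

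Of 16 further BCL2 family genes, 8 were marked in some library, beside 9903 of all 21887 protein-coding genes. Of the 8, 6 were marked in embryonic libraries alone, Bcl2l13 in all 12 and Bnip3l in 2 libraries of each phase. The share of all marked genes found in embryonic libraries alone was not counted, so the 6 are not read as a trait of the family. The 8 without a peak were Bcl2l2 (BCL-W), Bcl2a1a, Bcl2a1b, Bcl2a1d, Bik, Hrk, Bcl2l15 and Bnip3. Bcl2l14 (BCL-G) was the 1 gene of this list called by marked libraries, with 0 maternal and 6 embryonic (Fisher's exact test, adjusted p = 0.00963, against 21.6% of the genes tested called in that direction). Its covered length was 0 bp and 557.5 bp ± 171.0 (SD, n = 6 each, adjusted exact permutation p = 0.0102). The BH3-only gene Bid had peaks in both 2-cell and both 8-cell libraries, Bad in 2-cell replicate 1 and both 8-cell libraries, and Bcl2l12 in 2-cell replicate 2. Bcl2l13 and Bnip3l, both of the mitochondrial outer membrane, are named after their values were seen.

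**Figure D5:**
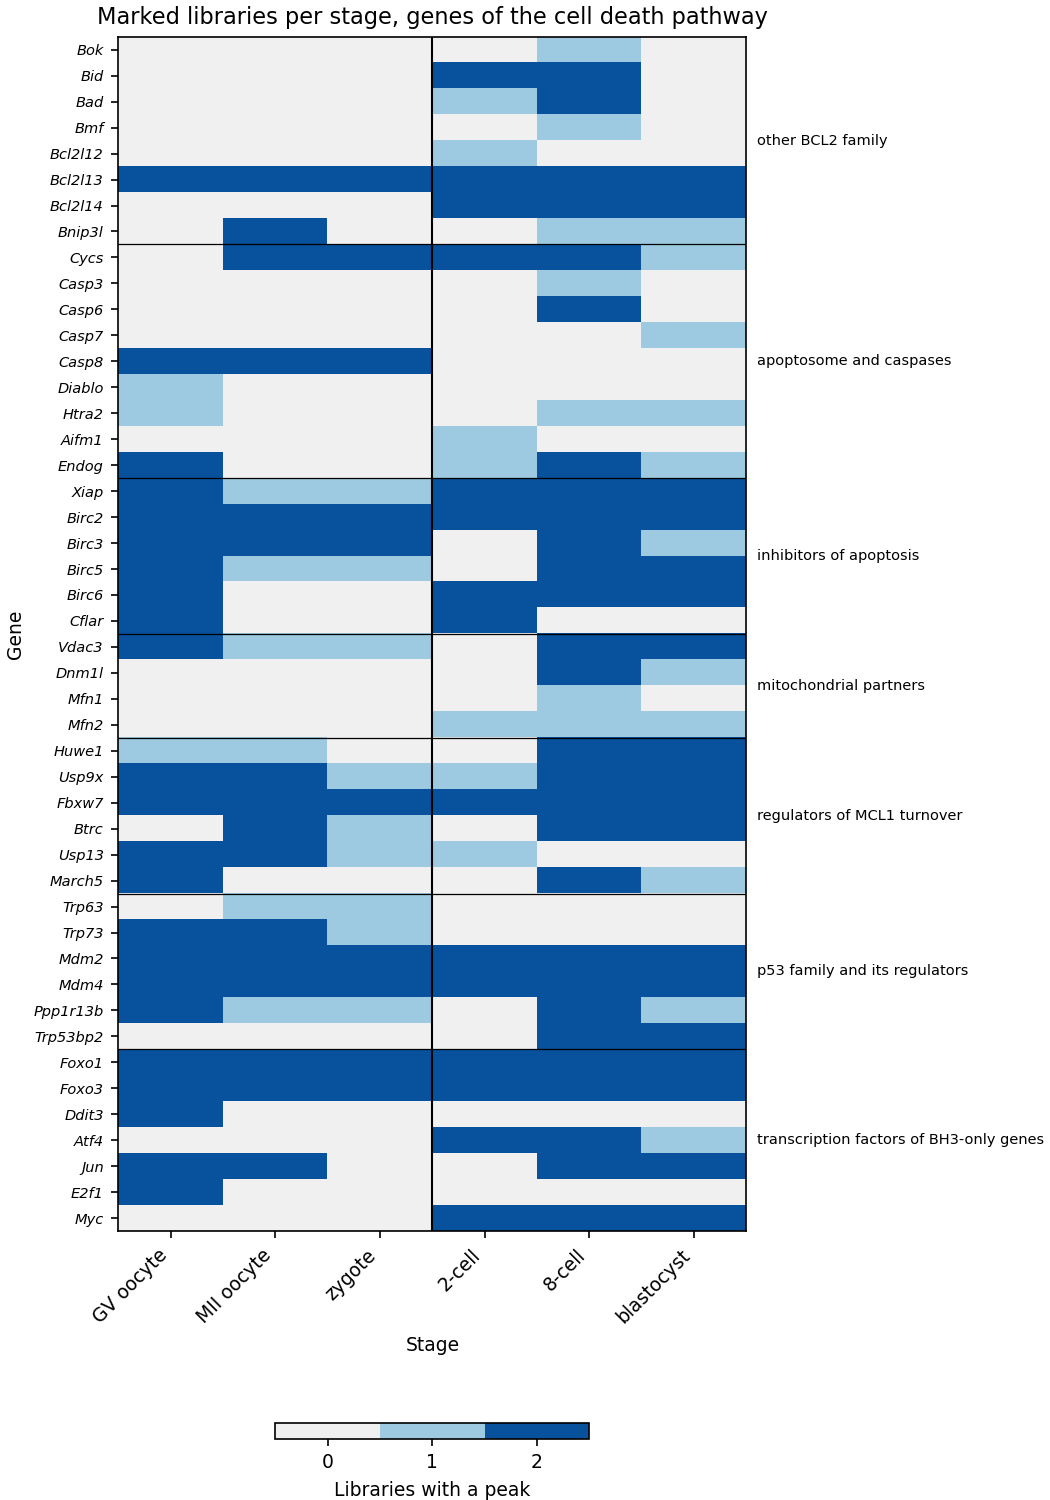
Number of libraries with an m6A peak (colour, 0 to 2) at each stage (horizontal axis) for the 46 marked genes of 7 lists around the BCL2 family (vertical axis, list names at the right). Casp8 is marked in the 3 maternal stages alone, Bcl2l14 and Myc in the 3 embryonic stages alone, and Birc6 has the stage pattern of Mcl1.

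Downstream of the mitochondrion, 9 of 12 genes of the apoptosome and caspase list were marked in some library. Casp8, the initiator caspase of death receptors, was the 1 called, with 6 maternal and 0 embryonic libraries (Fisher's exact test, adjusted p = 0.00963) and 777.5 bp ± 335.5 against 0 bp covered (SD, n = 6 each, adjusted exact permutation p = 0.0102). Cycs, the gene of cytochrome c, had a peak in every MII oocyte, zygote, 2-cell and 8-cell library and in blastocyst replicate 1, but in neither GV oocyte library. Casp6 was marked in both 8-cell libraries alone, and Endog in 2 maternal and 4 embryonic libraries. Apaf1, Casp2 and Casp9, named after their values were seen, had no peak.

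All 6 inhibitors of apoptosis were marked. Birc2 was marked in all 12 libraries, with 200.8 bp ± 2.04 covered in the maternal and 636.3 bp ± 381.0 in the embryonic phase (SD, n = 6 each, adjusted exact permutation p = 0.0102); it is named after its values were seen. Birc6, a very large ubiquitin ligase, had both GV oocyte and all 6 embryonic libraries and no MII oocyte or zygote library, the pattern of Mcl1, and its covered length did not pass the test (adjusted exact permutation p = 0.0519). Xiap, the inhibitor of executioner caspases, was marked in 4 maternal and 6 embryonic libraries, Birc3 in 6 and 3, and Birc5 (survivin) in 4 and 4.

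Of 8 regulators of MCL1 turnover, 6 were marked and 0 of 4 tested were called by marked libraries, whose unadjusted Fisher's exact p was 0.0801 or higher. Usp13, a deubiquitinase, was marked in 5 maternal libraries and 1 embryonic one and was covered over a longer stretch in the maternal phase (280.8 bp ± 139.6 against 41.8 bp ± 102.5, SD, n = 6 each, adjusted exact permutation p = 0.0387). The ubiquitin ligase genes Huwe1, Btrc and March5 had 2, 3 and 2 maternal and 4, 4 and 3 embryonic libraries.

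Of the p53 family, Trp73 was marked in 5 maternal libraries and 0 embryonic ones and was called (Fisher's exact test, adjusted p = 0.0306), whereas Trp63, which guards the oocyte genome, was marked in 1 MII oocyte and 1 zygote library and could not be tested. Among transcription factors of BH3-only genes, Myc was marked in 0 maternal and 6 embryonic libraries (adjusted p = 0.00963) and Atf4, of the stress response, in 0 and 5 (adjusted p = 0.0306, Fisher's exact test). Ddit3 and E2f1 were marked in both GV oocyte libraries alone. In these 2 lists, Mdm2, Mdm4, Foxo1 and Foxo3 were marked in all 12 libraries, and Trp53 and Chek2 in none. The genes of the last sentence are named after their values were seen. Vdac3, a mitochondrial channel, was marked in 4 maternal and 4 embryonic libraries, while Dnm1l, Mfn1 and Mfn2, of mitochondrial fission and fusion, had 0 maternal and 3, 1 and 3 embryonic libraries.

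Over the 7 lists, 46 of 64 genes were marked in some library, beside 9903 of all 21887 protein-coding genes. By marked libraries, 11 could be tested, and 2 were called for the maternal and 3 for the embryonic phase, beside 28.0% and 21.6% of all genes tested. By covered length, 26 were tested, and 3 and 4 were called, beside 25.4% and 15.6%.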

How the data were processed

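m6A-bound RNA of 12 pools was sequenced by picoMeRIP-seq. The submitters' processing notes name the build mm10 and the tools MACS2 2.1.2, HISAT2 2.1.0, cutadapt 1.8.1, bedtools 2.28.0, SAMtools 1.9, FastQC 0.11.8 and deepTools 3.2.0, without settings. The authors deposited 1 narrowPeak list per library, with a score, a fold enrichment, −log10 p- and q-values and a summit offset for each summit. Depth was unknown, so no counting interval was given.

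Summits with the same interval were joined into 1 peak, with the best q-value. A gene was marked by a peak overlapping its body (mm10 coordinates of the GRCm38.p6 RefSeq table, which gives no exons) by 1 bp or more. Phases were compared by two-sided Fisher's exact test on marked libraries (genes marked in 5 to 7 libraries) and by exact permutation of covered base pairs (924 splits, genes marked in 5 or more), both with Benjamini-Hochberg adjustment over all genes tested and a threshold of 0.05. Tests were checked on simulated data. The biological replicates are named as such in the series' design text. Python 3.11.15, numpy 2.4.6, pandas 2.3.3 and scipy 1.17.1 were used.

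The members, gene lists and tests were chosen with earlier results of these data known. Named were the 9 members, up to 4 genes per list with the largest difference in marked libraries, and the 3 genes most correlated with each member called by marked libraries. Other list genes, among them those without a peak, were named after their values were seen. Alternatives changed the overlap, peak filters, gene ends, libraries, replicate block and phases. The promoter table lacks Bcl2l10 and Pmaip1.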

Additional observations from a re-analysis of the deposited data

Results flagged for a closer look

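Among the 6 maternal libraries, MII oocyte replicate 1 stood apart in the length of Bcl2l1 covered by peaks. It had 954 bp, and the others lay between 710 bp and 747 bp, so that its gap to the nearest was 0.848 of the whole range (Dixon's limit for 6 samples is 0.625). The library held a second peak of 219 bp that no other library had. Of 8 sets of 6 libraries with any spread this was the 1 beyond the limit, and chance puts about 1 in 20 there.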

How the results depend on the processing

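Overlap by the peak midpoint or by most of the peak, and gene bodies extended by 1000 bp, left both calls for Bcl2l10 and the length call for Mcl1 past the threshold. Peaks with a fold at or above their library's median gave 569 genes called by marked libraries (main 1145) and 868 by covered length (main 2096); 0 members were called by the first test, 1 (Mcl1) by the second, and 1 member gain remained in the count (main 2). There Bcl2l1 reversed, to -33.3 percentage points and -229.3 bp (main 16.7 and 243.7), and Bcl2l10 fell to a difference of 194.2 bp. Keeping peaks whose score reached the median over the lists gave 1324 genes by length, 7 merged member regions (main 14), and 712 maternal against 190 embryonic calls (main 647 against 498). With equal numbers of peaks (6914 per library) these were 515 and 510, and 1 member was gained. Bcl2l1 was called longer in the maternal phase under both (adjusted exact permutation p = 0.0357 and 0.0366). With peak midpoints within 2000 bp of a gene end, 610 genes (289 and 321) and 896 by length were called, 1 member (Bcl2l10) by length, with 1 member gained and 1 lost; no Mcl1 peak has its midpoint in that window. The cause of these changes was not tested.

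Setting the 4 oocyte libraries against the other 8 gave 0 genes and 0 members past Fisher's exact test (244 genes with an unadjusted p under 0.05), and with whole stages permuted the exact test called 0 and 0 (0 genes, since p cannot go below 0.1). With merged regions, chosen after seeing the data, 2768 regions and 2 members (Bcl2l10 and Mcl1) were called. With each library left out in turn, 1201 to 1724 genes were called by marked libraries (1724 without 2-cell replicate 1) and 1578 to 1981 by length. Then 1 to 2 members were called by marked libraries (2 without either GV oocyte library, 2-cell replicate 1 or blastocyst replicate 1), 2 to 3 by length (3 without blastocyst replicate 1), and 2 to 3 were gained and 2 to 3 lost. Replicate numbers did not pair the libraries: deviations from stage means correlated between -0.182 and 0.0416 over 15 pairs of stages, 0 of them above 0.1 and 7 above 0. With the replicate block 1379 genes were called by length, and the members called by either test were the same. Depth is unknown, so no limit of detection can be given for genes without a peak.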

Other observations

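Several peaks over the members shared an edge to the base. Of the 8 peaks of the third Mcl1 region, 6 ended at 95661133, among them GV oocyte replicate 2 and all 8-cell and blastocyst libraries. In the second Mcl1 region 3 of 6 peaks began at 95659651. In the first Bcl2l10 region 3 of 6 peaks began at 75347837, and 3 ended at 75348242. For Bbc3, 2 of 3 peaks began at 16317211 and 2 ended at 16317410. In the main Bcl2l1 region the most common end was shared by 2 of 11 peaks.

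Prm2, a protamine gene of sperm, was marked in all 6 maternal libraries, oocytes included, and in 0 embryonic libraries (Fisher's exact test, adjusted p = 0.00963), while Prm1 and Tnp1 had no peak. It covered 348.2 bp ± 129.2 in the maternal phase (SD, n = 6).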
